A study of Mus musculus with 16 samples.

Results

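The genes described here regulate iron in the liver and were taken as a list of 10 symbols: Hamp, Hamp2, Tfrc, Tfr2, Hfe, Slc40a1, Fth1, Ftl1, Bmp6 and Id1. The list was chosen by function, with earlier results of these data known. The deposited table holds 16973 genes and 9 of the 10 symbols, while Fth1 was not analysed here. RNA was counted in 16 whole livers from male mice of the C57BL/6 strain, and each of 4 groups had 4 livers. These were livers labelled RPN11 hepatocyte-specific knockout, RPN11 flox/flox livers, METTL3 hepatocyte-specific knockout livers and METTL3 flox/flox livers. RPN11, encoded by Psmd14, is the deubiquitylating enzyme of the proteasome, and METTL3 is the catalytic subunit of the complex that methylates adenosine in mRNA at N6. The title of the study concerns nonalcoholic fatty liver disease, all mice ate and drank freely under specific pathogen free housing, and the sources used here give no age, diet, Cre driver or hour of collection. The labels number the livers within a group and say no more about their source, so p-values measure the spread between these livers.

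Hepcidin, the peptide hormone encoded by Hamp, is made by hepatocytes and limits iron in plasma by causing the iron exporter ferroportin (Slc40a1) to be degraded. Its transcription rises when bone morphogenetic proteins such as BMP6, released by the liver's sinusoidal endothelium, signal through SMAD proteins, with HFE and transferrin receptor 2 (Tfr2) as partners that report transferrin saturation, and when interleukin 6 acts through STAT3. Inside cells, iron regulatory proteins bind hairpins called iron-responsive elements in mRNA when iron is scarce. Bound 3′ UTR hairpins protect the transferrin receptor mRNA (Tfrc) from decay, while bound 5′ UTR hairpins block translation of the ferritin and ferroportin mRNAs.

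Iron-responsive elements are the sites through which iron sets the amount of Tfrc mRNA and the translation of Slc40a1 and Ftl1 mRNA. The hairpins below are shown because they match the letters of such elements. Each is a stretch of 27 bases read 5′ to 3′ from GENCODE M21 transcripts (GRCm38), and the capitals mark the loop CAGTGN, where N is any base. The search asked for a C, any 5 bases, the loop and 5 bases that pair with the 5 before the loop, on the transcript's strand. It found a match in 294 of 21901 genes (1.34%), and a match is a description of the letters only.
Tfrc 3′ UTR, chr16:32631220-32631246 (+): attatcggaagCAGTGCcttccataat
Tfrc 3′ UTR, chr16:32631599-32631625 (+): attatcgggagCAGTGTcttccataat
Tfrc 3′ UTR, chr16:32631664-32631690 (+): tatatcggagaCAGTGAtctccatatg
Tfrc 3′ UTR, chr16:32631711-32631737 (+): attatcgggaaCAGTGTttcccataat
Slc40a1 5′ UTR, chr1:45925466-45925492 (-): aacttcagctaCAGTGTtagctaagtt
Ftl1 5′ UTR, chr7:45459780-45459806 (-): tcttgcttcaaCAGTGTttgaacggaa
The search thus matched 4 such hairpins in Tfrc, all in its 3′ UTR, and 1 each in Slc40a1 and Ftl1, in their 5′ UTR. Elements whose bases beside the loop do not all pair would be missed, and function was not tested.

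Mice have a pair of neighbouring hepcidin genes, and the 250 bases before the RefSeq start of each (GRCm38.p6) are shown because the pair differed in level and in spread. The capitals mark GGCGCC, the core of the BMP-response element known from the human hepcidin promoter, and TTCTTGGAA, the STAT3 site known from the same promoter. Both strands were searched, and the motifs do not overlap.
Hamp promoter, chr7:30944030-30944279 (-): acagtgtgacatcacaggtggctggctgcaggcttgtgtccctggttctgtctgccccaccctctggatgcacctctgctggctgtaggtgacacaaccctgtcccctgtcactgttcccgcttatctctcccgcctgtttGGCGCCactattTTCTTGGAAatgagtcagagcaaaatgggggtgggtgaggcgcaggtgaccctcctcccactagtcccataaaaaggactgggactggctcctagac
Hamp2 promoter, chr7:30924182-30924431 (-): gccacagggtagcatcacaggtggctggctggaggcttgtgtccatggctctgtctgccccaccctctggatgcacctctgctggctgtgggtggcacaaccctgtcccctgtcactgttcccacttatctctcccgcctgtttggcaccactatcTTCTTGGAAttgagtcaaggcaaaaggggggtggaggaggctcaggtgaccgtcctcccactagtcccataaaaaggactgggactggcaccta
GGCGCC lay 109 bases before the Hamp start and TTCTTGGAA 97 bases before it. In the Hamp2 window TTCTTGGAA lay 94 bases before the start and GGCGCC had no match. The windows aligned over 247 bases without a gap, of which 227 (91.9%) were identical and 20 differed. The difference G145A lies inside the GGCGCC letters, with positions counted from 1 at the 5′ end of the printed Hamp window and the Hamp base given first. GGCGCC occurs in 9.59% and TTCTTGGAA in 0.365% of 32851 RefSeq mouse promoter windows of 250 bases. Of the other members with a RefSeq window, Tfrc also holds GGCGCC, 89 bases before the start of its first window.

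Total counts ran from 20938715 to 27645935 in livers labelled RPN11 knockout, 24516234 to 28212133 in RPN11 flox/flox, 15980959 to 27778135 in METTL3 knockout and 25062848 to 29029592 in METTL3 flox/flox livers. Psmd14 stood at 77.8 ± 12.4 CPM in livers labelled RPN11 knockout and 78.2 ± 3.62 CPM in RPN11 flox/flox livers (SD, n = 4 each; CPM, counts scaled to library size with TMM factors over all livers). It was not lower in the labelled knockouts (log2 fold change 0.01, SE 0.11), so that label is not borne out by whole-gene counts, which may include exons outside the deleted part. Mettl3 was 2.45-fold lower in METTL3 knockout than in METTL3 flox/flox livers (6.43 ± 0.165 against 15.7 ± 2.0 CPM, adjusted p = 0.000647, edgeR quasi-likelihood test). Replicate 4 of each knockout group stood apart by its brain transcripts, with 15 brain markers summing to 639.7 CPM in the labelled RPN11 knockout 4 and 429.7 CPM in METTL3 knockout 4, against 16.1 to 35.9 CPM in the other 14 livers. METTL3 knockout 1 stood apart from METTL3 knockouts 2 to 4, with chi-square per gene of 193 to 267 against 59.3 to 92.2 among those 3 livers. The most similar libraries were those of labelled RPN11 knockouts 1 and 3, at 8.15, above what sampling noise gives, and whether they came from separate mice is not given. Hepatocyte markers summed to 67690 CPM or more in every liver and none of the 10 was at 0, as the tissue label has it.

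Per kilobase of exon, Hamp was the most abundant of the 9 genes on the mean of all livers, though not in every group. Its group means were 1378 CPM per kilobase in labelled RPN11 knockouts and 1124 in RPN11 flox/flox livers, against 604 and 729 for Ftl1. In METTL3 knockouts the means were 650 for Hamp and 535 for Ftl1, and in METTL3 flox/flox livers both stood at 703. Averaged over the 16 livers, its level was 964 CPM per kilobase (range 516 to 2017), followed by the ferritin light chain gene Ftl1 at 643 (489 to 937) and Hamp2 at 81.9 (14.7 to 225). Tfr2 averaged 44.9 CPM per kilobase (19.0 to 61.9), Slc40a1 29.7 (22.1 to 38.7) and Hfe 12.9 (8.71 to 15.8). Tfrc averaged 5.78 CPM per kilobase (3.38 to 12.6), Id1 3.81 (0.701 to 7.91) and Bmp6 0.612 (0.260 to 1.05). Neighbours in this order overlapped over the livers except Ftl1 with Hamp2 and Slc40a1 with Hfe. The genes at the head of the order make the hormone and the iron store, and the endothelial ligand gene Bmp6 stood last.

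**Figure D1:**
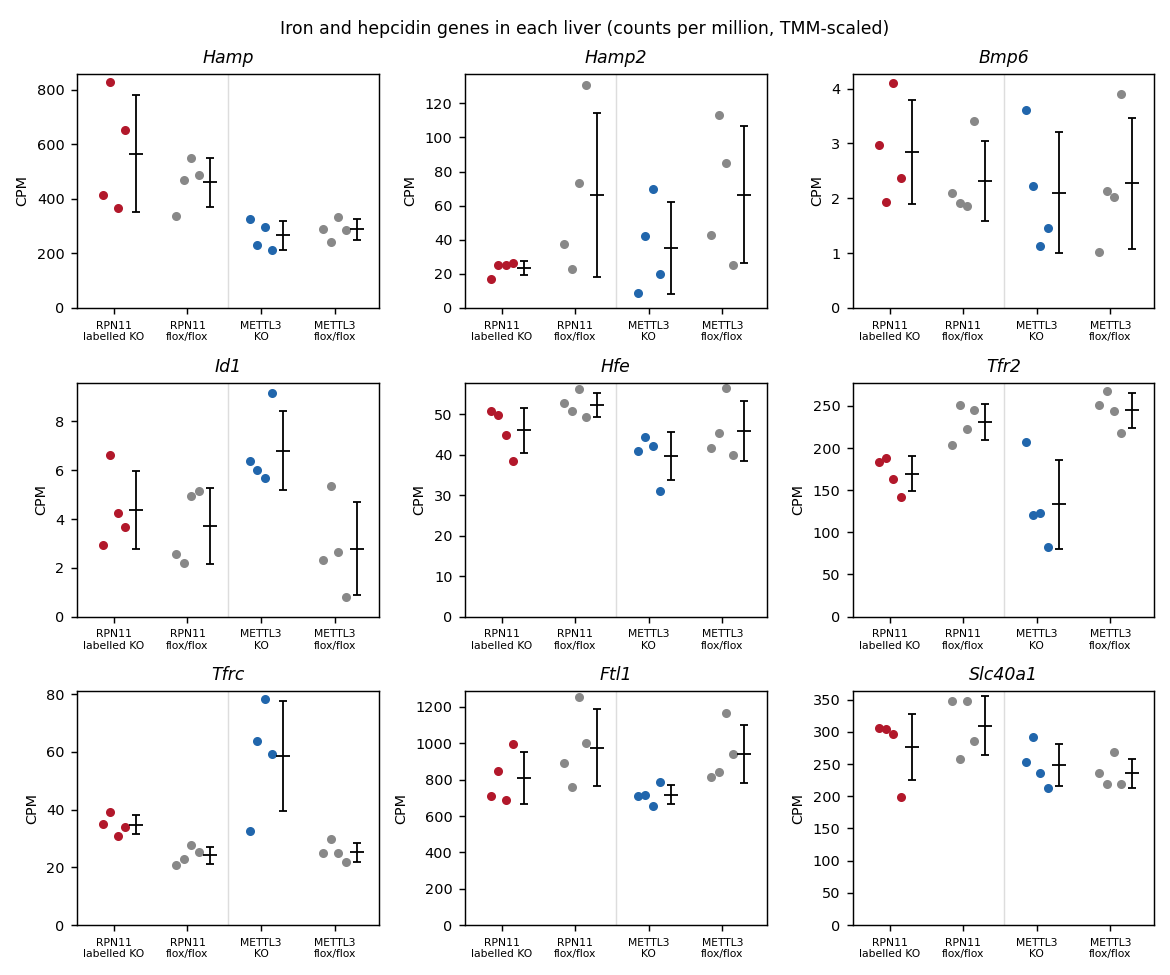
Level of each of the 9 genes in each liver, in CPM on linear axes that start at 0, with red for livers labelled RPN11 knockout, blue for METTL3 knockout and grey for flox/flox livers; bars give the mean ± SD of 4 livers. Tfrc stands above its flox/flox livers in all 8 livers labelled knockout and Tfr2 below them, while Hamp stands at 337.3 CPM or more in the 8 livers of the RPN11 line and at 335.2 CPM or less in the 8 of the METTL3 line.

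The first comparison set livers labelled RPN11 knockout against RPN11 flox/flox livers. Tfrc, the receptor that takes up transferrin-bound iron, rose 1.46-fold in the labelled RPN11 knockouts and was the 1 gene of the 9 that passed the test. Tfr2, the hepatocyte sensor of transferrin saturation, stood below the flox/flox range in all 4 labelled knockouts without passing. Hamp did not pass in this comparison, and nor did the other members. The count of 1 called gene of 9 is to be read against 4.81% of all 12108 genes tested (583 genes, 1.99% called higher and 2.82% lower), and 2 of 9 genes with groups that did not overlap against 17.6%. At an unadjusted p under 0.05 the count was 3 of 9 genes and 3032 of all genes. The members' median log2 fold change was -0.15, against 0.03 for all genes tested.

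Hamp held 414, 827, 368 and 651 CPM in labelled RPN11 knockouts 1 to 4, against 337, 470.3, 549.9 and 486 CPM in RPN11 flox/flox livers 1 to 4. The labelled knockouts reached both higher and about as low as the flox/flox livers, so the groups overlapped. Its log2 fold change was 0.32 (SE 0.26, 95% interval -0.33 to 0.96, adjusted p = 0.485 in the quasi-likelihood test of edgeR, adjusted after Benjamini and Hochberg over all genes). Hamp2, the second hepcidin gene, held 17.2, 24.9, 25.5 and 26.5 CPM in the labelled knockouts, against 37.2, 22.7, 73.4 and 131.0 CPM in the flox/flox livers. The flox/flox livers ranged widely and the lowest of them lay within the range of the labelled knockouts. Its log2 fold change of -1.46 (SE 0.53, adjusted p = 0.153) did not pass. Hamp2 made up 2.93 to 6.46% of the counts of both hepcidin genes in labelled RPN11 knockouts and 4.61 to 21.2% in RPN11 flox/flox livers. The pair is close in sequence and how reads that match both were handled is not stated, so the split between them is uncertain. Exons of Hamp2 also share 89 bases with exons of Gm44662 on the other strand. Strandedness and the handling of reads in shared bases are not given. The Hamp2 counts may thus hold reads of that gene or lack some of their own. For both genes summed, the log2 fold change was 0.18 (adjusted p = 0.708).

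Of the genes that signal to hepcidin, Bmp6 held 2.97, 1.92, 4.11 and 2.38 CPM in the labelled RPN11 knockouts, against 2.11, 1.92, 1.86 and 3.41 CPM in the RPN11 flox/flox livers. These are 43 to 94 counts a liver, and the groups overlapped (log2 fold change 0.31, SE 0.37, adjusted p = 0.636). Exons of Bmp6 share 224 bases with exons of Txndc5 on the other strand, and strandedness is not given. The Bmp6 counts may thus hold reads of that gene or lack some of their own. Id1, a target gene of BMP and SMAD signalling, held 2.93, 6.61, 4.24 and 3.69 CPM in the labelled knockouts, against 2.56, 2.20, 4.92 and 5.16 CPM in the flox/flox livers. Here too the groups overlapped (log2 fold change 0.26, SE 0.37, adjusted p = 0.701), and the interval of -0.64 to 1.15 leaves room for changes in either direction.

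Tfr2 held 183, 189, 164 and 142 CPM in the labelled RPN11 knockouts, against 204, 251, 223 and 245 CPM in the RPN11 flox/flox livers. All 4 labelled knockouts stood below all 4 flox/flox livers. The log2 fold change was -0.43 (SE 0.12, 95% interval -0.71 to -0.15), with an adjusted p of 0.0565 by edgeR that just missed the threshold of 0.05. It passed in 4 of 16 alternatives, by DESeq2 (0.00966), by limma's voom with quality weights (0.0171), with genes at a mean of at least 5 CPM (0.0400) and without labelled knockout 4 (0.0446), and missed in the other 12, with an adjusted p up to 0.201. Hfe, which encodes the haemochromatosis protein that partners with it, held 50.9, 49.8, 45.0 and 38.6 CPM in the labelled knockouts and 52.9, 50.9, 56.2 and 49.5 CPM in the flox/flox livers. The labelled knockouts lay at or below the lower end of the flox/flox range with an overlap, and the gene did not pass (log2 fold change -0.17, SE 0.11, adjusted p = 0.334).

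Tfrc held 35.02, 39.3, 31.0 and 34.1 CPM in the labelled RPN11 knockouts, against 20.9, 22.8, 27.8 and 25.2 CPM in the RPN11 flox/flox livers. All 4 labelled knockouts stood above all 4 flox/flox livers. The log2 fold change was 0.55 (SE 0.12, 95% interval 0.24 to 0.85, adjusted p = 0.0322 by edgeR). The change stayed between 0.48 and 0.69 under every alternative tried, but the call was lost in 9 of 16, with an adjusted p up to 0.129, among them the fits without labelled knockout 1 (0.0560), without labelled knockout 2 (0.0847) and without any 1 of the flox/flox livers (0.0677 to 0.118). Without labelled knockout 4, which held brain transcripts, the change was 0.54 (adjusted p = 0.0246). Because whole livers were measured, a change in the share of a cell type and a change in RNA per cell cannot be told apart. The 10 hepatocyte markers summed to 98639 to 134350 CPM in the labelled RPN11 knockouts against 142699 to 163873 CPM in the flox/flox livers. Most of that sum is albumin (Alb), at 71886 to 99669 against 106478 to 134834 CPM, and of the 10 genes 0 were called lower and 1, Tat, was called higher, with a median log2 fold change of -0.15. Cholangiocyte markers summed to 90.4 to 102 CPM in labelled knockouts 1 to 3, against 62.4 to 82.7 CPM in the flox/flox livers. In labelled knockout 4 the sum was 618 CPM, of which Spp1 made 603 CPM. Of the cholangiocyte markers tested, 0 of 4 were called. Kupffer cell markers overlapped at 184 to 421 against 190 to 325 CPM with 0 of 8 called. The part of these markers in the result was not tested.

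Ftl1, which encodes the light chain of the iron store ferritin, held 709.6, 847, 686 and 995 CPM in the labelled RPN11 knockouts, against 891, 757, 1256 and 1001 CPM in the RPN11 flox/flox livers. The groups overlapped and the gene did not pass (log2 fold change -0.25, SE 0.18, adjusted p = 0.425). Slc40a1, which encodes the exporter ferroportin, held 306, 305, 296 and 199 CPM in the labelled knockouts, against 347, 257, 348 and 286 CPM in the flox/flox livers. Labelled knockouts 1 to 3 were close together inside the flox/flox range and labelled knockout 4 lay below it. The log2 fold change was -0.15 (SE 0.15, adjusted p = 0.569), and -0.03 without labelled knockout 4. The 95% intervals of -0.69 to 0.20 for Ftl1 and -0.52 to 0.22 for Slc40a1 give the sizes of change the data allow.

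The second comparison set METTL3 knockout against METTL3 flox/flox livers. Tfrc rose 2.32-fold and Tfr2 fell 1.84-fold in METTL3 knockout livers, and both calls held under every alternative tried. Id1 stood above its flox/flox range and Ftl1 below it in all 4 knockouts, without passing. Hamp, the hormone gene, did not pass. The 2 called genes of 9 are to be read against 30.5% of all 12450 genes tested (3799 genes, 15.2% called higher and 15.3% lower), so the count of calls did not exceed the background. Groups did not overlap for 4 of the 9, beside 31.4% of all genes. An unadjusted p under 0.05 was reached by 3 of the 9 genes and 5323 of all genes. The members' median log2 fold change was -0.11 and that of all genes 0.04, while the members' median size of change was 0.39 and that of all genes 0.49.

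Hamp held 328, 233, 295 and 212 CPM in METTL3 knockouts 1 to 4, against 289, 241, 335 and 287 CPM in METTL3 flox/flox livers 1 to 4. The groups overlapped throughout, and the log2 fold change was -0.11 (SE 0.18, 95% interval -0.54 to 0.32, adjusted p = 0.660). With plain library totals in place of TMM the value was 0.28 (adjusted p = 0.107), in a setting that moved the median of all genes to 0.46. Hamp2 held 8.58, 42.0, 69.5 and 19.8 CPM in the METTL3 knockouts, against 42.7, 113, 84.9 and 24.98 CPM in the METTL3 flox/flox livers. Its values ran over a wide range in both groups, and the log2 fold change of -0.92 (SE 0.72, adjusted p = 0.370) did not pass. It made up 2.55 to 19.1% of the counts of both hepcidin genes in METTL3 knockouts and 8.02 to 31.9% in METTL3 flox/flox livers. For both summed, the log2 fold change was -0.23 (adjusted p = 0.342).

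Id1 held 6.39, 6.01, 5.66 and 9.17 CPM in the METTL3 knockouts, against 2.30, 5.37, 2.64 and 0.814 CPM in the METTL3 flox/flox livers, which is 20 to 214 counts a liver. All 4 knockouts stood above all 4 flox/flox livers, with flox/flox liver 2 close below them. The log2 fold change was 1.29 (SE 0.46, 95% interval 0.16 to 2.42) with an adjusted p of 0.0526 by edgeR. It passed in 6 of 16 alternatives, among them DESeq2 (0.0220), limma's voom (0.00751) and the fit without flox/flox liver 2 (0.0171), and missed in the other 10, with an adjusted p up to 0.124, which was without flox/flox liver 1. The sum of the sinusoidal endothelial markers also stood higher, at 269 to 295 CPM in METTL3 knockouts against 198 to 251 CPM in METTL3 flox/flox livers. Of the 9 tested, 3 were called higher (Kdr, Pecam1 and Cdh5) and 6 did not pass. Stab1 (28.0 against 36.2 CPM), Clec4g (19.0 against 21.2 CPM) and Oit3 (22.3 against 22.6 CPM) had lower means in the METTL3 knockouts. The part of these markers in the Id1 result was not tested. Bmp6 held 3.62, 2.22, 1.13 and 1.46 CPM in the METTL3 knockouts, against 1.01, 2.14, 2.02 and 3.91 CPM in the METTL3 flox/flox livers. The lowest and the highest value both fell in the flox/flox group, and the gene did not pass (log2 fold change -0.11, SE 0.52, adjusted p = 0.891).

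Tfr2 held 207, 120.0, 123 and 82.3 CPM in the METTL3 knockouts, against 250.5, 268, 244 and 218 CPM in the METTL3 flox/flox livers. All knockouts stood below all flox/flox livers, and METTL3 knockout 1 was the closest to them. Tfr2 thus had a log2 fold change of -0.88 (SE 0.23, 95% interval -1.45 to -0.32, adjusted p = 0.0148 by edgeR), -1.16 without knockout 1 and -0.53 with plain library totals. Hfe held 40.8, 44.5, 42.2 and 31.1 CPM in the METTL3 knockouts and 41.6, 45.4, 56.6 and 39.9 CPM in the METTL3 flox/flox livers. The groups overlapped and Hfe did not pass (log2 fold change -0.21, SE 0.15, adjusted p = 0.319).

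Tfrc held 32.7, 63.9, 78.2 and 59.4 CPM in the METTL3 knockouts, against 24.9, 29.7, 24.9 and 21.7 CPM in the METTL3 flox/flox livers. All knockouts stood above all flox/flox livers, with METTL3 knockout 1 just above the highest of them and knockouts 2 to 4 well apart. For Tfrc the log2 fold change came to 1.21 (SE 0.23, 95% interval 0.65 to 1.78, adjusted p = 0.00340 by edgeR). It was 1.42 without knockout 1 (adjusted p = 2.38e-05) and 1.20 without knockout 4, which held brain transcripts (adjusted p = 0.00634).

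Markers of several cell types moved beside these receptors. Summed hepatocyte markers were 142380 CPM in METTL3 knockout 1 and 67690 to 83831 CPM in METTL3 knockouts 2 to 4, against 131955 to 159927 CPM in METTL3 flox/flox livers, a sum that is mostly albumin. The 5 of 10 markers called lower were Ttr, Serpina1a, Apoa2, Hnf4a and Asgr1, and each stood below every flox/flox liver in METTL3 knockout 1 too. Kupffer cell markers summed to 356 to 500 CPM in METTL3 knockouts against 140.0 to 213 CPM in METTL3 flox/flox livers, with 8 of 8 tested called higher and Csf1r at 0 in 9 of the 16 livers. Stellate cell markers summed to 513 to 653 against 278 to 365 CPM, with 6 of 8 called higher. Cholangiocyte markers summed to 198 to 254 CPM in METTL3 knockouts 1 to 3, against 67.0 to 142 CPM in METTL3 flox/flox livers. In METTL3 knockout 4 the sum was 537 CPM, of which Spp1 made 493 CPM. Sox9 and Spp1 were called higher of 6 tested. Kupffer cells and hepatocytes express Tfrc and hepatocytes express Tfr2, and the part of these shifts in the receptor results was not tested.

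Ftl1 held 710.5, 717, 655 and 785 CPM in the METTL3 knockouts, against 815, 843, 1167 and 940.5 CPM in the METTL3 flox/flox livers. On this scale all knockouts stood below all flox/flox livers. The log2 fold change of -0.39 (SE 0.18) missed the threshold by edgeR (adjusted p = 0.119). Ftl1 passed in 2 of 16 alternatives, by DESeq2 (adjusted p = 0.0411) and by limma's voom with quality weights (adjusted p = 0.0321). With plain library totals the change was 0.04. Ftl1 shares exon bases with the annotated genes Gm22133 and Gm10252, so its counts may hold other reads or lack some of their own. Slc40a1 held 253, 291, 237 and 213 CPM in the METTL3 knockouts, against 236, 218, 268 and 219 CPM in the METTL3 flox/flox livers. The groups overlapped, with a log2 fold change of 0.08 (SE 0.15, 95% interval -0.29 to 0.45, adjusted p = 0.706) that became 0.50 (adjusted p = 0.0199) with plain library totals.

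**Figure D2:**
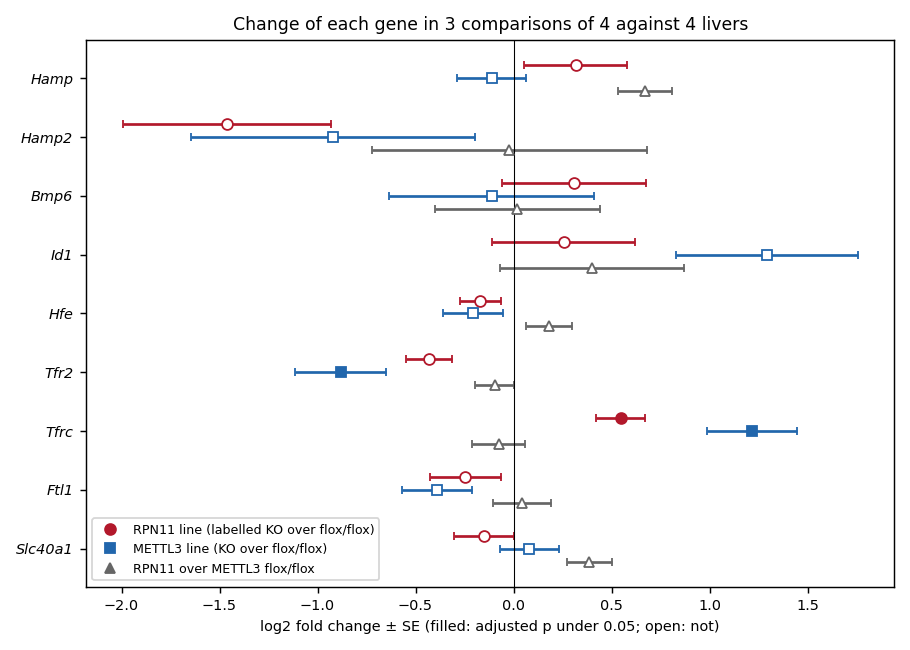
Log2 fold change ± SE of each gene in 3 comparisons of 4 against 4 livers, namely labelled RPN11 knockout over RPN11 flox/flox (red circles), METTL3 knockout over METTL3 flox/flox (blue squares) and RPN11 over METTL3 flox/flox (grey triangles); filled points have an adjusted p under 0.05. Tfrc lies to the right in both lines (0.55 and 1.21) and Tfr2 to the left (-0.43 and -0.88), and the widest bars are those of Hamp2.

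The difference between the knockout effects was tested in 1 fit of all 16 livers, as the effect in the labelled RPN11 knockout minus that in the METTL3 knockout. None of the 9 genes passed by edgeR, beside 13.1% of 13118 genes tested (1720 genes, 6.96% with a positive and 6.15% with a negative difference). At an unadjusted p under 0.05 the count was 1 of 9 genes and 3658 of all genes, and limma's voom called 2 of the 9. The gene with the unadjusted p under 0.05 was Tfrc, whose effects of 0.55 in the labelled RPN11 knockout and 1.21 in the METTL3 knockout differed by -0.68 on the log2 scale (SE 0.27, 95% interval -1.27 to -0.09, adjusted p = 0.102). The Tfr2 effects differed by 0.43 (SE 0.28, adjusted p = 0.342). Without METTL3 knockout 1 both differences passed, at -0.87 for Tfrc (adjusted p = 0.00360) and 0.74 for Tfr2 (adjusted p = 0.0176). Id1 differed by -1.05 (SE 0.61, 95% interval -2.39 to 0.29, adjusted p = 0.283) and Hamp by 0.41 (SE 0.33, 95% interval -0.31 to 1.12, adjusted p = 0.466). The rise in Tfrc was thus called in each line, and a difference in its size did not pass by edgeR.

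The flox/flox livers of the lines give the level of these genes in the controls. Hamp stood higher in RPN11 flox/flox livers (461 ± 89.3 CPM) than in METTL3 flox/flox livers (288 ± 38.5 CPM), with the lowest RPN11 flox/flox liver at 337.3 CPM and the highest METTL3 flox/flox liver at 335.2 CPM. The groups thus touched without overlapping. The log2 fold change of 0.67 (SE 0.14, 95% interval 0.33 to 1.01) had an adjusted p of 0.0507 by edgeR, over alternatives from 0.00100 to 0.146, and 0.0447 without METTL3 flox/flox liver 4. Slc40a1 had the next lowest p, at 309.5 ± 45.6 CPM in RPN11 flox/flox and 235 ± 23.2 CPM in METTL3 flox/flox livers, with overlapping groups (log2 fold change 0.39, SE 0.11, adjusted p = 0.116). None of the 9 genes passed by edgeR, beside 0.319% of 11905 genes tested (38 genes, 0.244% called higher and 0.0756% lower), while 2 of 9 and 1962 of all genes had an unadjusted p under 0.05, and DESeq2 called 2 of the 9. Hamp was the 1 gene of 9 with groups that did not overlap, beside 9.13% of all genes. Tfrc (log2 fold change -0.08, SE 0.14) and Tfr2 (-0.10, SE 0.10) did not pass, with 95% intervals of -0.41 to 0.26 and -0.34 to 0.15. Line and anything else that differed between these sets of livers cannot be told apart in this comparison.

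Relations among the members were examined across livers for 6 pairs on log2(CPM + 0.5). Over all 16 livers, Hamp showed no relation past the threshold with Id1, a target gene of the same pathway (Pearson's r = -0.008, permutation p = 0.975; Spearman's rho = -0.13, permutation p = 0.623), and r after leaving out the 2 livers farthest from the median of Hamp was -0.22. Within lines the sign of that relation differed, with r = 0.63 over the 8 livers of the RPN11 line (exact permutation p = 0.0948) and r = -0.46 over the 8 livers of the METTL3 line (exact permutation p = 0.255). Nor did Hamp pass with its ligand gene Bmp6 (r = 0.14, permutation p = 0.595) or with Hamp2 (r = -0.06, permutation p = 0.820). The lowest p came from Tfrc and Bmp6 after group means were subtracted (r = -0.62, rho = -0.50, permutation p = 0.0309 and 0.0916), which did not pass over the 6 pairs (adjusted p = 0.185 and 0.550), and within single lines r was 0.14 in the RPN11 and -0.42 in the METTL3 line. No pair passed in any of these settings.

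Among 13117 other tested genes, those most like Tfrc across the 16 livers were Arf6, a small GTPase of membrane recycling (r = 0.961), Oasl1, an interferon-induced gene (r = 0.955), and Mtmr11 (r = 0.944). Those most like Hamp were Vwa3b (r = 0.862), Angel2 (r = 0.832) and Zfhx4 (r = 0.831). These r describe log2(CPM + 0.5) over livers that share groups, and carry no test.

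The wider iron pathway was read from 7 lists of 82 symbols, of which 79 were in the table. These lists too were chosen with earlier results of these data known. In the labelled RPN11 knockout, 1 of 76 tested genes was called (1.32%, beside 4.81% of all genes). None of the 8 haem synthesis genes passed there. The called gene was Tmprss6, the hepatocyte protease that restrains hepcidin by cleaving the BMP co-receptor hemojuvelin. Tmprss6 held 189, 139, 169 and 109 CPM in the labelled RPN11 knockouts, against 228, 230.1, 244 and 221 CPM in the RPN11 flox/flox livers. All labelled knockouts stood below all flox/flox livers, a 1.51-fold fall (log2 fold change -0.59, SE 0.15, adjusted p = 0.0409 by edgeR). The call was lost in 8 of 16 alternatives, among them the fits without labelled knockout 2 (adjusted p = 0.119), without labelled knockout 3 (0.0546) and without any 1 of the flox/flox livers (0.105 to 0.149). In METTL3 knockouts Tmprss6 did not pass (178 ± 59.3 against 212 ± 20.1 CPM in METTL3 flox/flox livers, adjusted p = 0.369), and the effects were not shown to differ (-0.35, SE 0.28, adjusted p = 0.452).

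In METTL3 knockouts, 6 of 77 tested genes of the wider lists were called higher and 17 lower, together 29.9% beside 30.5% of all genes, so the lists as a whole were at the background; without METTL3 flox/flox liver 2 the count was 15. In haem synthesis, 4 of 8 genes fell, 0 rose and 4 did not pass, with a list median of -0.69 against 0.04 for all genes, beside 15.3% of all genes called lower. In iron-sulphur cluster assembly, 4 of 10 fell and 0 rose (median -0.34). Among storage and sensing genes, 3 of 6 fell and 1 rose. Among uptake, transport and export genes, 2 of 14 fell and 2 rose, and among the inflammatory inputs to hepcidin, 3 of 11 fell and 2 rose. In haem scavenging and breakdown 1 of 9 fell, and in BMP and hepcidin signalling 1 of 19 was called, the hemojuvelin-binding receptor gene Neo1, which rose 1.42-fold. Hepatocyte markers had 5 of 10 called lower and a median of -0.76 in the same comparison, and erythroid markers 2 of 5, and the part of these in the list results was not tested.

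Alas1, the rate-limiting enzyme of haem synthesis in liver, held 167, 103, 122 and 114 CPM in the METTL3 knockouts, against 700.3, 391, 379 and 552 CPM in the METTL3 flox/flox livers. All 4 knockouts lay far below every flox/flox liver. The fall was 3.99-fold (log2 fold change -2.0, SE 0.23, adjusted p = 0.000351 by edgeR), and -1.60 with plain library totals. Further along the pathway, Cpox fell 2.18-fold (121 ± 39.1 against 265 ± 17.5 CPM, adjusted p = 0.00270), Alad 1.81-fold (31.8 ± 5.97 against 57.7 ± 3.72 CPM, adjusted p = 0.00183) and Urod 1.80-fold (28.5 ± 5.90 against 51.3 ± 4.20 CPM, adjusted p = 0.00243), each in METTL3 knockout against METTL3 flox/flox livers. With plain library totals Alad no longer passed (adjusted p = 0.0605).

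The iron-sulphur scaffold gene Iscu fell 1.84-fold in METTL3 knockouts (40.8 ± 6.20 against 75.2 ± 6.63 CPM in METTL3 flox/flox livers, adjusted p = 0.00105) and the cluster carrier gene Glrx5 fell 1.80-fold (adjusted p = 0.00280, and 0.0942 with plain library totals). Slc39a14, an importer of iron not bound to transferrin (ZIP14), fell 1.95-fold. It stood at 159 ± 18.8 CPM in METTL3 knockouts and 311 ± 24.9 CPM in METTL3 flox/flox livers (adjusted p = 0.00109 by edgeR). Steap3, the ferrireductase that works with the transferrin receptor in endosomes, rose 1.71-fold, at 24.1 ± 3.32 CPM in METTL3 knockouts and 14.1 ± 3.0 CPM in METTL3 flox/flox livers (adjusted p = 0.00912). In the same livers, then, Tfrc and Steap3 rose and Slc39a14 fell. Of the 14 tested uptake, transport and export genes, 10 did not pass, among them Slc11a2, Slc39a8 and Scara5. Pcbp2, which encodes an iron chaperone, fell 1.49-fold (adjusted p = 0.00713, and 0.333 with plain library totals).

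**Figure D3:**
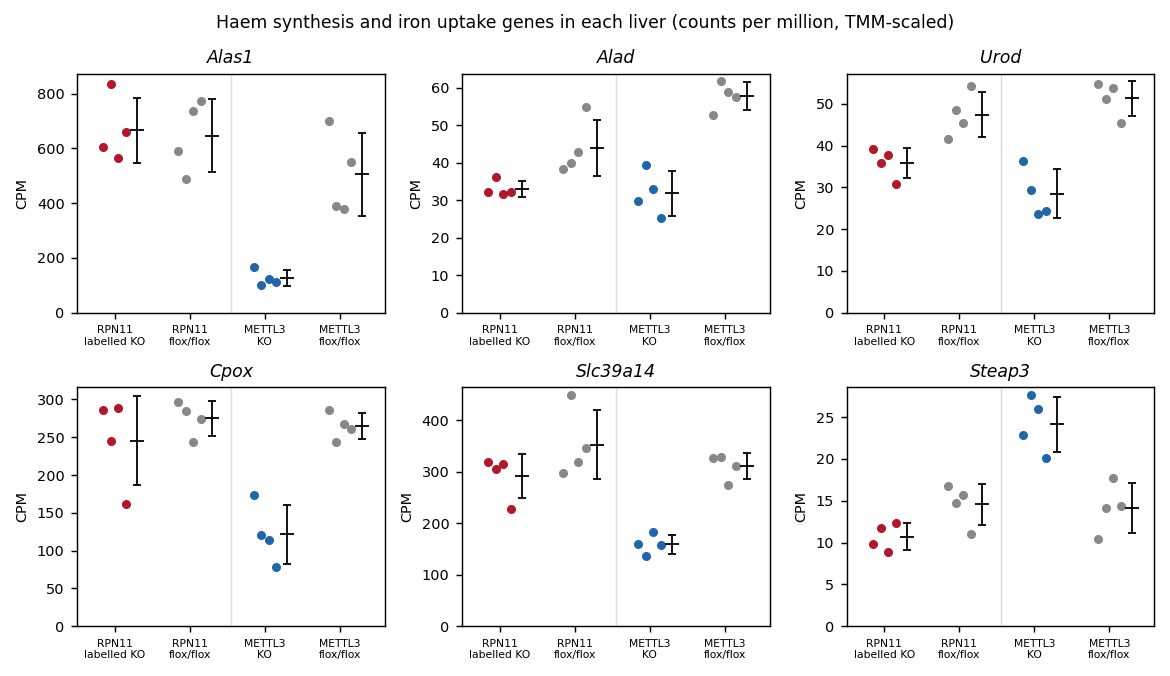
Level of 4 haem synthesis genes and of the iron uptake genes Slc39a14 and Steap3 in each liver, in CPM on linear axes from 0, with red for livers labelled RPN11 knockout, blue for METTL3 knockout, grey for flox/flox livers and bars for the mean ± SD of 4 livers. In the METTL3 line the knockouts lie below all flox/flox livers for Alas1, Alad, Urod, Cpox and Slc39a14 and above them for Steap3.

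Of the inflammatory inputs to hepcidin, the interleukin 6 receptor gene Il6ra fell 2.76-fold, at 14.7 ± 2.37 CPM in METTL3 knockouts and 40.6 ± 17.8 CPM in METTL3 flox/flox livers (adjusted p = 0.00336 by edgeR). Creb3l3, a hepatocyte transcription factor, fell 2.35-fold (adjusted p = 0.00424), and Crp, an acute-phase gene, fell 2.62-fold (adjusted p = 0.00722). Crp stood at 518 CPM in METTL3 knockout 1 and 167 to 221 CPM in METTL3 knockouts 2 to 4, against 655 to 856 CPM in METTL3 flox/flox livers. Il6st, the signalling chain shared by this receptor family, rose 1.40-fold (adjusted p = 0.0235).

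**Figure D4:**
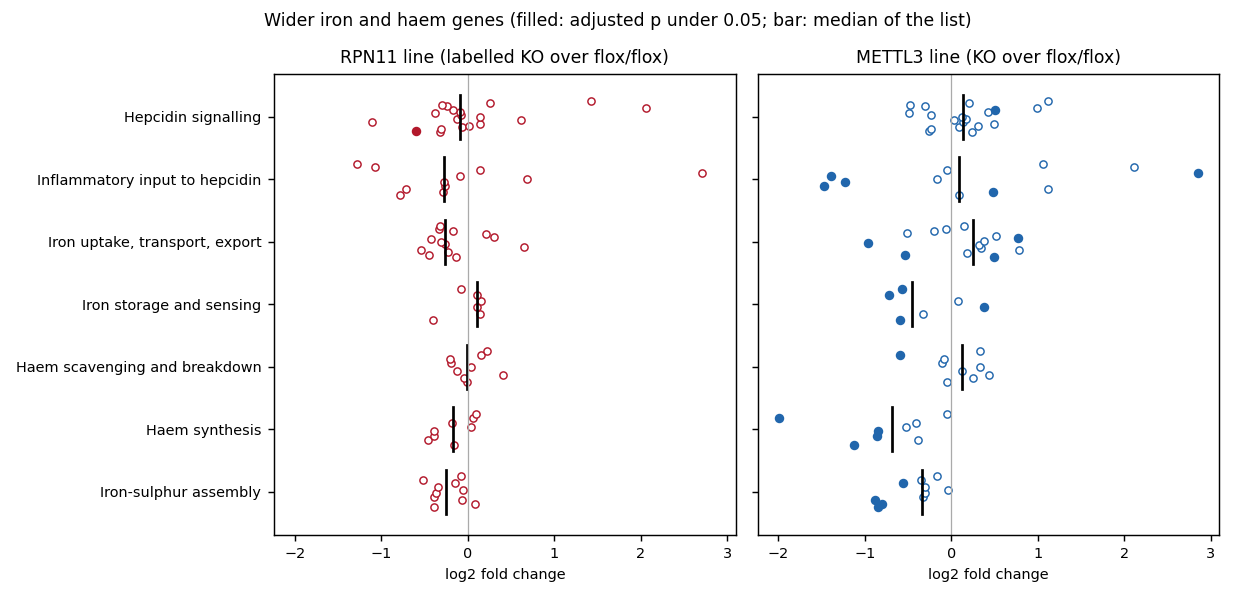
Log2 fold change of each tested gene of 7 iron and haem lists in the labelled RPN11 knockout over RPN11 flox/flox (left) and the METTL3 knockout over METTL3 flox/flox (right); filled points have an adjusted p under 0.05 and bars give the list median. On the left 1 point is filled, Tmprss6 at -0.59; on the right the haem synthesis list has its median at -0.69 and its lowest point, Alas1, at -2.0.

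The effects of the labelled RPN11 knockout and the METTL3 knockout differed for 13 of the 77 tested genes of the wider lists (16.9%, beside 13.1% of all genes). Alas1 was the clearest, at 666 ± 119 CPM in labelled RPN11 knockouts against 647 ± 132 CPM in RPN11 flox/flox livers and 126 ± 27.9 CPM in METTL3 knockouts against 506 ± 152 CPM in METTL3 flox/flox livers (difference of log2 fold changes 2.04, SE 0.31, adjusted p = 0.000649 by edgeR). Steap3 differed the other way (difference -1.22, SE 0.25, adjusted p = 0.00547), being 10.7 ± 1.63 CPM in labelled RPN11 knockouts and 14.6 ± 2.47 CPM in RPN11 flox/flox livers. Both calls, and that of Iscu, held with any 1 liver left out, while the count of 13 genes fell as low as 4, without labelled RPN11 knockout 2, and rose to 18 without METTL3 knockout 1. Between the flox/flox livers 0 of 76 tested genes of the wider lists passed by edgeR, 5 by DESeq2 and 2 by limma's voom.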

How the data were processed

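The authors deposited 16 columns of read counts per gene and 16 columns of normalized values, per the file headers; the counts were used and the 16 normalized columns were not. Per the submitters' processing notes, reads were trimmed with cutadapt 1.9.3, aligned to mm10 with HISAT2 2.0.4, counted with HTSeq 0.9.1 and normalized with edgeR. The sources used here give neither the annotation nor the strandedness. Ribosomal RNA was removed before library construction, per the labels' protocols.

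Each line was fitted alone (4 against 4 livers, 6 residual degrees of freedom) with edgeR 4.0.16 in R 4.3.3, using filterByExpr, TMM factors and a robust quasi-likelihood test with Benjamini-Hochberg adjustment over all tested genes at 0.05. All 9 members passed filterByExpr in the main fit of every comparison. With the alternative filter at a mean of at least 5 CPM, Bmp6 was not tested, nor was Id1 outside the METTL3 line. The difference between the effects was a contrast in 1 fit of 16 livers. Levels and their SDs are CPM over library sizes scaled by TMM across 16 livers. Fold changes, SEs and intervals come from the edgeR fit of each comparison, with the TMM factors of that fit. The intervals and SDs cover counting error and spread between livers. Correlations used permutation over 100000 resamples (16 livers) or exact enumeration (8 livers).

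The members and the wider lists were chosen with earlier results of these data known. The rule for named genes took the members, Psmd14 and Mettl3, up to 12 called genes of the wider lists with the lowest p in each comparison, and the 3 genes most like Hamp and Tfrc. Tmprss6, Neo1 and Il6st fell under it too, and Inhba was among the genes named outside it. Sequences and coordinates come from GENCODE M21 (GRCm38, with 16804 of 16973 identifiers matched) and RefSeq promoters (GRCm38.p6).

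On simulated data with 100 genes changed 2-fold and 100 genes 4-fold, the RPN11 fit recovered 51% of the smaller and 85% of the larger changes. The METTL3 fit recovered 41% and 81%, the contrast of effects 23% and 49% and the flox/flox fit 60% and 89%. False calls were 11 of 147 calls, 8 of 130, 4 of 76 and 14 of 163 in the same order. Far fewer genes were changed there than the 30.5% called in the METTL3 line, so recovery in that line may differ. The alternatives were Hamp and Hamp2 summed, each liver left out, plain library totals, RLE size factors, DESeq2 1.42.0, limma 3.58.1 (voom, quality weights), no filter, a filter at mean 5 CPM, a replicate block, and all livers in 1 fit.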

Additional observations from a re-analysis of the deposited data

Results flagged for a closer look

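Of 36 sets of 4 livers examined (9 genes in 4 groups), 2 held a liver far from the other 3 by Dixon's test, where chance gives about 1 in 20. Slc40a1 stood at 199 CPM in labelled RPN11 knockout 4, the liver with brain transcripts, against 296 to 306 CPM in the other 3 labelled knockouts. Bmp6 stood at 3.41 CPM in RPN11 flox/flox liver 4, against 1.86 to 2.11 CPM in the other 3, at 74 against 43 to 51 counts.

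For 13 genes of the wider iron lists the effect of the labelled RPN11 knockout differed from that of the METTL3 knockout, and the 12 with the lowest p are given first, as the difference of log2 fold changes by edgeR's quasi-likelihood test. It was positive for Alas1 (2.04), Crp (1.29), Cpox (0.96), Creb3l3 (0.94), Isca2 (0.86), Ncoa4 (0.82), Iscu (0.80) and Slc39a14 (0.70). It was negative for Steap3 (-1.22), Steap2 (-0.89), Il6st (-0.79) and Neo1 (-0.69). The adjusted p ran from 0.000649 for Alas1 to 0.0421 for Slc39a14. For the remaining gene, Il6ra, the difference was 1.19 (adjusted p = 0.0422), and it was not recomputed under the alternatives. Ncoa4, the receptor that delivers ferritin to autophagy, stood at 324 ± 53.0 CPM in labelled RPN11 knockouts against 303 ± 9.26 CPM in RPN11 flox/flox livers, and at 174 ± 36.2 CPM in METTL3 knockouts against 287 ± 19.3 CPM in METTL3 flox/flox livers. Of the 12, the calls for Alas1, Steap3 and Iscu held when any 1 liver was left out, and those of the other 9 were lost without at least 1 liver. With plain library totals the differences for Iscu, Ncoa4, Isca2 and Slc39a14 no longer passed (adjusted p from 0.0549 to 0.161). No explanation was tested.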

How the results depend on the processing

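For single genes, 1132 of the alternative values kept the side of the threshold, 112 lost a call, 30 gained one and 0 of them turned a called direction. The 1132 include values called in neither setting whose sign turned. Hamp in the METTL3 line is an example, at -0.11 and at 0.28 with plain library totals. Tfrc and Tfr2 in the METTL3 line kept their calls under all 16 alternatives. Plain library totals were chosen after the data were seen; they moved the median of all genes to 0.18 in the RPN11 line, 0.46 in the METTL3 line and -0.24 for the difference, and the called genes to 662 higher and 222 lower (RPN11, against 241 and 342), 4077 and 789 (METTL3, against 1893 and 1906) and 546 and 1436 (difference, against 913 and 807). The cause of each change below was not tested.

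In the RPN11 line, 583 genes were called, and 350 with no filter, 1333 by DESeq2, 1458 by voom, 884 with plain library totals and 343 in 1 fit of all livers. Of the 9 members 1 was called, and 0 with no filter, 2 at a mean of at least 5 CPM, 2 by DESeq2, 2 by voom and 0 in 1 fit of all livers. Of the wider genes 1 was called, and 0 with no filter, 7 by DESeq2, 8 by voom and 0 in 1 fit of all livers. In the METTL3 line 2 members were called, and 4 by DESeq2, 4 by voom and 4 with plain library totals. For the difference voom gave 3478 genes against 1720, 2 members against 0 and 20 wider genes against 13. Between flox/flox livers 38 genes were called, and 66 with RLE, 144 with no filter, 83 at 5 CPM, 412 by DESeq2 and 174 by voom. Of the members 0 were called there, and 1 with RLE, 1 with no filter, 1 at 5 CPM and 2 by DESeq2 (Hamp in each, with Slc40a1 by DESeq2). Of the wider genes 0 were called, and 1 with no filter, 5 by DESeq2 and 2 by voom.

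Leaving out 1 liver at a time gave 59 to 941 genes, 0 to 2 members and 0 to 2 wider genes in the RPN11 line, 2737 to 4932 genes, 2 to 3 members and 15 to 30 wider genes in the METTL3 line, 1095 to 2663, 0 to 2 and 4 to 18 for the difference, and 1 to 282, 0 to 1 and 0 to 5 between flox/flox livers. The lowest and highest counts over all genes came without RPN11 flox/flox liver 3 and labelled RPN11 knockout 4 (RPN11 line), without RPN11 flox/flox liver 1 and METTL3 knockout 1 (difference) and, between flox/flox livers, the highest without METTL3 flox/flox liver 4.

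The deviations of same-numbered livers correlated at -0.07 to -0.02 in the RPN11 line, 0.05 to 0.18 in the METTL3 line and -0.17 to 0.11 between flox/flox livers, and since no comparison had every pair over 0.1 the numbers were not taken as a pairing. METTL3 knockouts 1, 3 and 4 each correlated best with the flox/flox liver of their own number (0.11, 0.09 and 0.18). METTL3 knockout 2 correlated best with flox/flox liver 3 (0.10), against 0.05 with its own number. Whether the numbers pair livers in that line is thus not settled by these values. With the replicate number as a block 3837 genes were called in the METTL3 line, against 3799, while 376 genes and 0 members were called in the RPN11 line and 7 genes between flox/flox livers, and Hamp2 passed in the METTL3 line (log2 fold change -1.07, adjusted p = 0.0486).

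Depth limits Bmp6 and Id1 most, at 26 to 96 and 20 to 214 counts a liver.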
